A study of Homo sapiens with 15 samples.

Results

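The splicing factors and heterogeneous nuclear ribonucleoproteins (hnRNPs) are described here across cells with an induced intracellular domain of each of the 4 NOTCH receptors. Members were all protein-coding genes whose symbol starts with SRSF, HNRNP, SF3A, SF3B, SNRP or PRPF. Of 202 identifiers with such a symbol, 133 were pseudogenes or other non-coding entries, which left 69 members among 31352 identifiers, and 65 of them were among the 15122 genes with enough reads to be tested. The 4 others were SNRPN, SRSF12, HNRNPCL1 and HNRNPCL4.

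The study measured polyadenylated RNA in 15 libraries of a human cell line, 3 in each of 5 groups. In NICD1, NICD2, NICD3 and NICD4 the intracellular domain (NICD) of NOTCH1, NOTCH2, NOTCH3 or NOTCH4, the part that a cut receptor releases to act in the nucleus, was expressed under doxycycline. The control group, EV, carried the empty vector in an isogenic background. The labels name HCT116, a colorectal carcinoma line, and the sample descriptions name U373, a line sold as an astrocytoma. Neither the dose nor the time of doxycycline is stated, nor whether EV was given it, and the labels do not state separate cultures or clones for the replicates, so p-values reflect how far libraries of a group differ, and that spread may be technical. The library NICD4 replicate 1 carries NICD3 in 2 of its label fields and NICD4 in its title, and results for NICD4 are therefore also given without it.

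Splicing removes introns in a spliceosome built from small nuclear ribonucleoproteins (snRNPs), each an RNA held in a ring of Sm proteins. U1 marks the 5′ splice site, U2 with its SF3A and SF3B complexes binds the branch site, and PRPF proteins of the tri-snRNP and the Prp19 complex carry the reaction through. SR proteins mostly promote, and hnRNPs often repress, the use of nearby exons, so that the balance between them shapes alternative splicing.

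The promoters below are shown to set members that rose with every NICD beside members that fell with every NICD. SNRPD3 and SF3B5 ranked highest by their smallest rise, and SF3B1 and HNRNPH1 by their smallest fall, over the 4 comparisons with EV on both scales described below, among members of at least 10 CPM in EV whose window held a stretch of at least 100 bases outside exons. SNRPC is the highest such riser with a match to an ETS motif. Each line gives bases 5′ to 3′ on the gene's strand from the window of 250 bases before a RefSeq gene start (GRCh38.p14), kept to the stretch outside every exon in GENCODE 29, of at least 100 bases. SNRPD3 and SF3B1 had 2 windows each and HNRNPH1 had 4. For these the window with the longest such stretch is shown, which need not belong to the start in use. Capitals mark matches on either strand to 3 motifs, the E-box CACGTG bound by MYC and related factors, GTGGGAA, which RBPJ (the DNA-binding partner of NICD) can bind, and CCGGAAG, the core of ETS factor sites.
SNRPD3, chr22:24555400-24555502, plus strand, rose: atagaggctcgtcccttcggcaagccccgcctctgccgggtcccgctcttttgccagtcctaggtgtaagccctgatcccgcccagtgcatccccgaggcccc
SF3B5, chr6:144095574-144095823, minus strand, rose: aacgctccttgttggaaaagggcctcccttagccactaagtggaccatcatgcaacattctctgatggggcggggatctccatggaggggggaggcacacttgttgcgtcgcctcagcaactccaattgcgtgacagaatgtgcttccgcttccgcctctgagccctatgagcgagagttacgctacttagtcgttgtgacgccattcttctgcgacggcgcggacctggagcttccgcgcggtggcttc
SNRPC, chr6:34757255-34757405, plus strand, rose: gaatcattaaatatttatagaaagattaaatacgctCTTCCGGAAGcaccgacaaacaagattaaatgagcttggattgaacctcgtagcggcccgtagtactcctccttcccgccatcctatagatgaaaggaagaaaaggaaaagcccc
SF3B1, chr2:197435094-197435343, minus strand, fell: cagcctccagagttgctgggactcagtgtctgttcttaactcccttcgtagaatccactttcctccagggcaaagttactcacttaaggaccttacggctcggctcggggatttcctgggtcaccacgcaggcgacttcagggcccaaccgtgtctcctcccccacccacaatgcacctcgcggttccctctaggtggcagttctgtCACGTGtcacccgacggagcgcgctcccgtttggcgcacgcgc
HNRNPH1, chr5:179634785-179635034, minus strand, fell: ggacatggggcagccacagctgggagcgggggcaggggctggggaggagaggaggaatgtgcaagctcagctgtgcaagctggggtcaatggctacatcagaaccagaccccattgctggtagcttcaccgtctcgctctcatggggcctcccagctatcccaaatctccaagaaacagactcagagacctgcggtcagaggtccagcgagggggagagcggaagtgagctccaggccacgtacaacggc

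Promoter windows were present for 60 members. A member or gene was counted when any of its windows of 250 bases held the motif on either strand. CCGGAAG was found in 20 of these 60 members (33.3%) and in 10.2% of all 27305 genes with a window, and the palindrome CACGTG in 7 members (11.7%) and in 7.73% of all genes. GTGGGAA was found in 1 member (1.67%), HNRNPUL1, and in 6.69% of all genes. Of the members called higher in all 4 comparisons (below), 12 had a window: 6 held CCGGAAG (SNRPB, SNRPC, SNRPD2, SF3A2, SF3B4 and PRPF6) and 0 held CACGTG. Of those called lower in all 4, 13 had a window: 4 held CACGTG (HNRNPDL, HNRNPH2, HNRNPH3 and SF3B1) and 1 held CCGGAAG (SRSF5). A match is a description of letters and not a bound site. The set of all genes was not limited to tested genes. Its windows had a median GC content of 58% and numbered 1.29 per gene, against 61.5% and 1.37 for the members. The search was chosen after the changes were known, and the 2 sets differ in the number of windows per gene, 1.42 and 1.69.

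Libraries held 11630195 to 27704492 counted reads. Levels are given as scaled CPM, that is CPM on a library size corrected by the trimmed mean of M values (TMM). Changes are on the log2 scale after adding a constant equal to 0.0544 CPM, and a call is a two-sided limma p adjusted by the Benjamini-Hochberg method over all tested genes of under 0.05. All 4 comparisons share the 3 EV libraries and are not independent. Where leaving out 1 library on its own ended a call, that library is named beside the result with the value found without it. Scaling by library totals alone moved the median change of all tested genes from -0.08, -0.03, -0.07 and -0.12 (NICD1 to NICD4) to -0.53, -0.31, -0.48 and -0.66. The median of the members moved with it, to -0.69, -0.33, -0.56 and -1.06. Under that scaling the median of the Sm ring stayed above 0 in NICD1 to NICD3 (0.16, 0.28 and 0.29) and was -0.20 in NICD4, that of SF3A and SF3B was below 0 in all groups (-0.42, -0.01, -0.21 and -0.60), and those of SR proteins and hnRNPs were lower still (-1.15, -0.56, -0.83 and -1.51, and -0.79, -0.50, -0.66 and -1.22). Reads of the libraries also depended on the GC content of transcripts: the slope over genes was -0.46 to -0.35 log2 units per 10 percentage points of GC in EV, -0.21 to -0.07 in NICD2, -0.01 to 0.12 in NICD3, 0.08 to 0.26 in NICD1 and 0.21 to 0.49 in NICD4. GC content was that of the longest annotated transcript of a gene, which need not be the one expressed. Members had a median GC content of 42.5%, below the 49% of all tested genes, and a median exon length of 5093 bases against 4637. Values after the trend of every library on GC content was removed are therefore given beside the counts of each class and list and beside most of the genes named. The slope per doubling of exon length was 0.11 to 0.22 log2 units in EV and 0.02 to 0.08 in NICD2. It was -0.10 to -0.05 in NICD1, -0.07 to -0.02 in NICD3 and -0.11 to -0.07 in NICD4. For GC content and length alike, no NICD library reached the range of EV. A bias of the libraries and a change with NICD cannot be told apart here, and removing a trend can take out either. Some markers of cell identity moved with the groups as well. The summed level of 12 colorectal epithelial markers was 2093 to 2670 scaled CPM in EV and 9517 to 23210 over the NICD libraries. By group 6 to 8 of the 12 were at 1 CPM or more. KRT8, KRT18 and KRT19 made up most of the sum (means of 1061, 392 and 703 in EV and 8512, 2322 and 2726 in NICD1). CDH1 and CDX2 were also higher in every NICD group. EPCAM was at 152 in EV and 222, 280, 231 and 151 in NICD1 to NICD4, and VIL1 at 0.93 and 0.42, 0.75, 0.23 and 1.44. CDX1 was at 0.03 in NICD4 and 0 in the other groups. Over 9 fibroblast markers the sum was 37.2 to 42.1 in EV and 10.1 to 14.6 in the others. VIM and COL3A1 went from means of 21.7 and 5.36 in EV to at most 2.19 and 0.0324 in a NICD group. COL1A1 was at 11.4 in EV and 11.3 in NICD4, and PDGFRB was higher with every NICD. Of 10 astrocyte and glioma markers 3 or 4 per group reached 1 CPM (54.3 to 56.6 summed in EV, 47.6 to 81.3 in the others). SLC1A3 was at 20.3 in EV and 14.1, 50.2, 23.7 and 16.2 in NICD1 to NICD4, and NES at 29.7 and 25.8, 21.97, 22.7 and 36.2. BCAN was at 2.87 in EV and 7.604, 5.02, 5.62 and 9.53 in NICD1 to NICD4. GFAP was at 1.63 in EV and 2.09, 0.981, 2.63 and 4.38. OLIG2 and AQP4 were near 0 in EV too (0.0103 and 0.0128) and at 0 in all NICD groups. The 4 blood markers summed to at most 4.78. Their part in the results below was not tested, and in bulk RNA a change in the mix of cells and a change within cells cannot be told apart.

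The Sm proteins SNRPB, SNRPD1, SNRPD2 and SNRPD3, SNRPA and SNRPC of U1, SF3B5 and SF3A2 of U2, and PRPF31 of the tri-snRNP were higher with every NICD, with and without the trend on GC content. These were 9 of 65 tested members, where 16.8% of 14737 genes met the same rule. SNRPA, SNRPB and SNRPD2 no longer met it when the trend on exon length was removed as well. SR proteins and hnRNPs were mostly lower or not called as measured, and were called in both directions once the trend on GC content was removed. In NICD1, 19 of 65 tested members were called higher and 34 lower, where the background over all tested genes was 35.6% higher and 39.8% lower. In NICD2 18 were higher and 18 lower (background 29.6% and 29.9%), in NICD3 18 and 28 (33% and 36.2%), and in NICD4 16 and 40 (37.4% and 43.6%). As shares of the members, the lower calls were 52.3%, 27.7%, 43.1% and 61.5%, above the background in NICD1, NICD3 and NICD4, and the higher calls were 29.2%, 27.7%, 27.7% and 24.6%, below it in all 4. Without NICD4 replicate 1, 17 were higher and 40 lower in NICD4. The median change of the members was -0.23, -0.05, -0.14 and -0.51 in NICD1 to NICD4, and without NICD4 replicate 1 the last was -0.38. Over all 4 comparisons 62 of 65 members were called at least once, and PRPF4, SNRPB2 and HNRNPA1L3 never. Reads on the members made up 2.06 to 2.19% of all counted reads in EV. With NICD2 this share was 1.76 to 1.88%, with NICD3 1.57 to 1.70%, with NICD1 1.44 to 1.61% and with NICD4 1.29 to 1.502%, so that no NICD library reached the range of EV. It is a share of library totals, a scale on which the median change of all tested genes was -0.53, -0.31, -0.48 and -0.66 (NICD1 to NICD4). A fall on that scale is therefore not particular to the members.

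**Figure D1:**
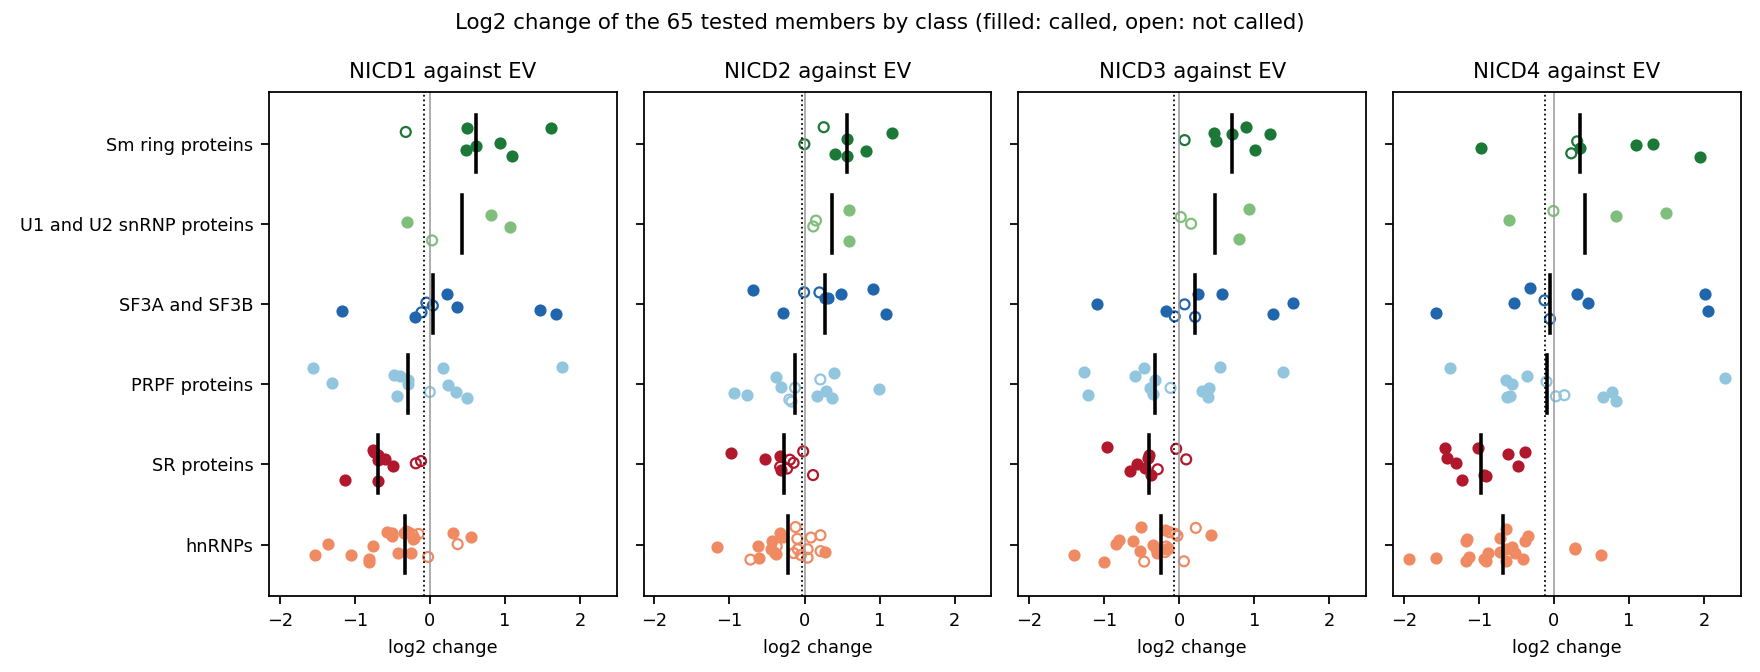
Log2 change against EV (x axis) of the 65 tested members, 1 point each, by class (rows) and NICD group (panels). Filled points were called, black bars are class medians, dotted lines the median of all 15122 tested genes. No SR protein was called higher in any panel, and 4 to 6 of 7 tested Sm ring proteins were. Of all tested genes 35.6%, 29.6%, 33% and 37.4% were called higher in NICD1 to NICD4. With the trend on GC content removed (not shown here), 2, 2, 2 and 3 of 10 tested SR proteins were called higher, and 6, 6, 7 and 6 Sm ring proteins.

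With the GC trend removed the balance turned. Members called higher then numbered 27, 24, 29 and 28 in NICD1 to NICD4 (background 34.6%, 30%, 32.8% and 36.8% of 14737 genes), and members called lower 16, 11, 15 and 21 (background 36%, 29.6%, 33.4% and 37.9%). The share of higher calls was then 41.5%, 36.9%, 44.6% and 43.1%, above the background in each, and the share of lower calls 24.6%, 16.9%, 23.1% and 32.3%, below it. The median change of the members became 0.09, 0.11, 0.11 and 0.12. Of the members called lower, the change turned positive for 12 of 34 in NICD1, 1 of 18 in NICD2, 9 of 28 in NICD3 and 15 of 40 in NICD4, and of those called higher it turned negative for 1 of 19 in NICD1 and for 0 in the others. How often genes in general turned sign was not counted, so these reversals cannot be called particular to the members. As measured, the 4913 genes of lowest GC content (up to 44.5%) had median changes of -0.58, -0.29, -0.46 and -0.78 (NICD1 to NICD4). The 35 members among them had medians of -0.42, -0.20, -0.35 and -0.64. Across the 65 members the change rose with GC content (Spearman rho 0.49, 0.51, 0.47 and 0.55 over members that share these libraries), as it did across all tested genes (0.46, 0.32, 0.42 and 0.51), and it fell with exon length (-0.41, -0.39, -0.42 and -0.32 over members).

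**Figure D2:**
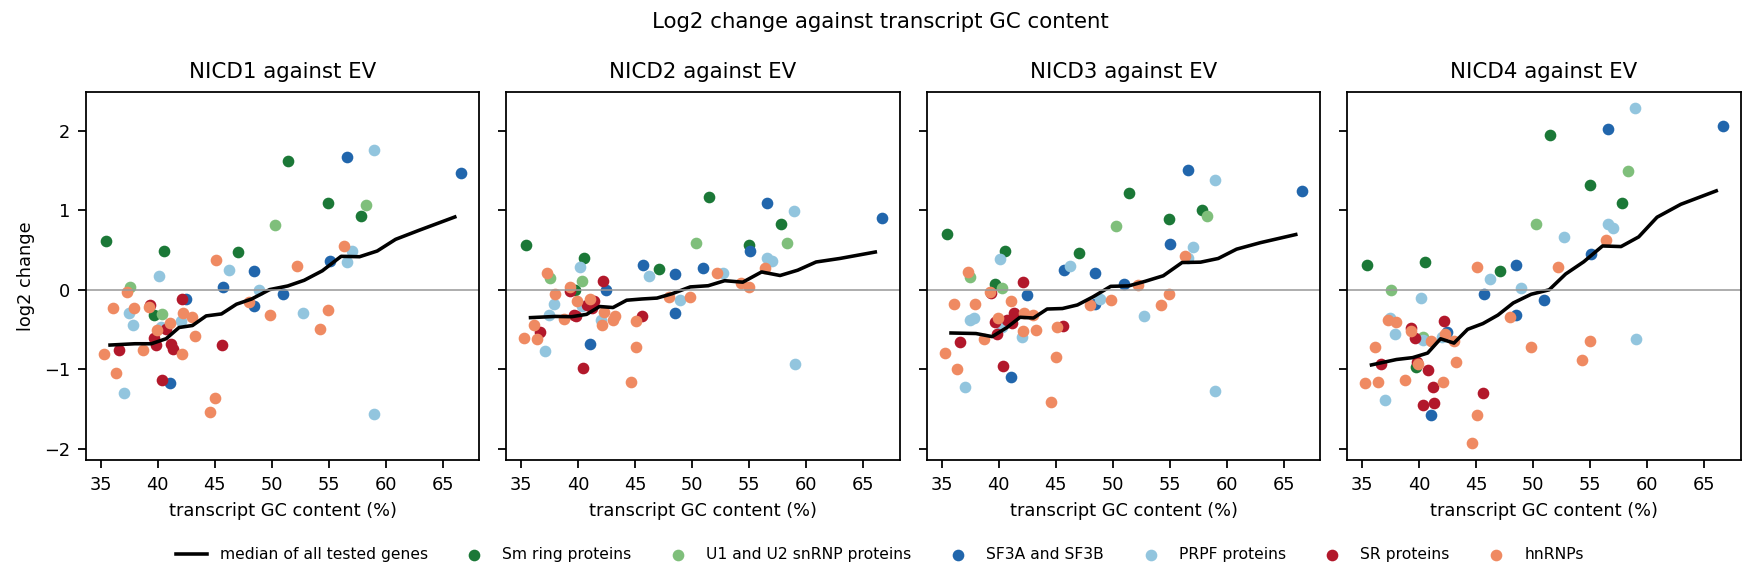
Log2 change against EV (y axis) by GC content of the gene's longest annotated transcript in percent (x axis). Points are tested members coloured by class, and the line is the median of all tested genes in 20 bins of equal size. hnRNPs and SR proteins (median GC content 42.6% and 40.6%) lie mostly where the line is below 0, and PRPF31, SF3A2 and SNRPD3 are among the highest points in every panel.

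Called higher in all 4 comparisons were 13 members (background 23.2%), and called lower in all 4 were 17 (background 23.3%). With the GC trend removed these were 20 (21.8%) and 7 (21.3%). Both with and without the trend, 9 members were higher in all 4 (background 16.8%): SNRPB, SNRPD1, SNRPD2, SNRPD3, SNRPA, SNRPC, SF3A2, SF3B5 and PRPF31. Lower in all 4 on both scales were 7 (background 16.3%): HNRNPDL, HNRNPH1, SRSF5, SF3B1, SF3B3, PRPF39 and PRPF40B. When the trend on exon length was removed as well, 6 of the 9 and 5 of the 7 still met the rule, and SNRPA, SNRPB, SNRPD2, HNRNPH1 and SF3B3 did not. As shares of the 65 members, the higher calls in all 4 were 20% as measured and 30.8% with the GC trend removed, and the lower calls 26.2% and 10.8%, so that neither direction stood above its background on both scales.

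**Figure D3:**
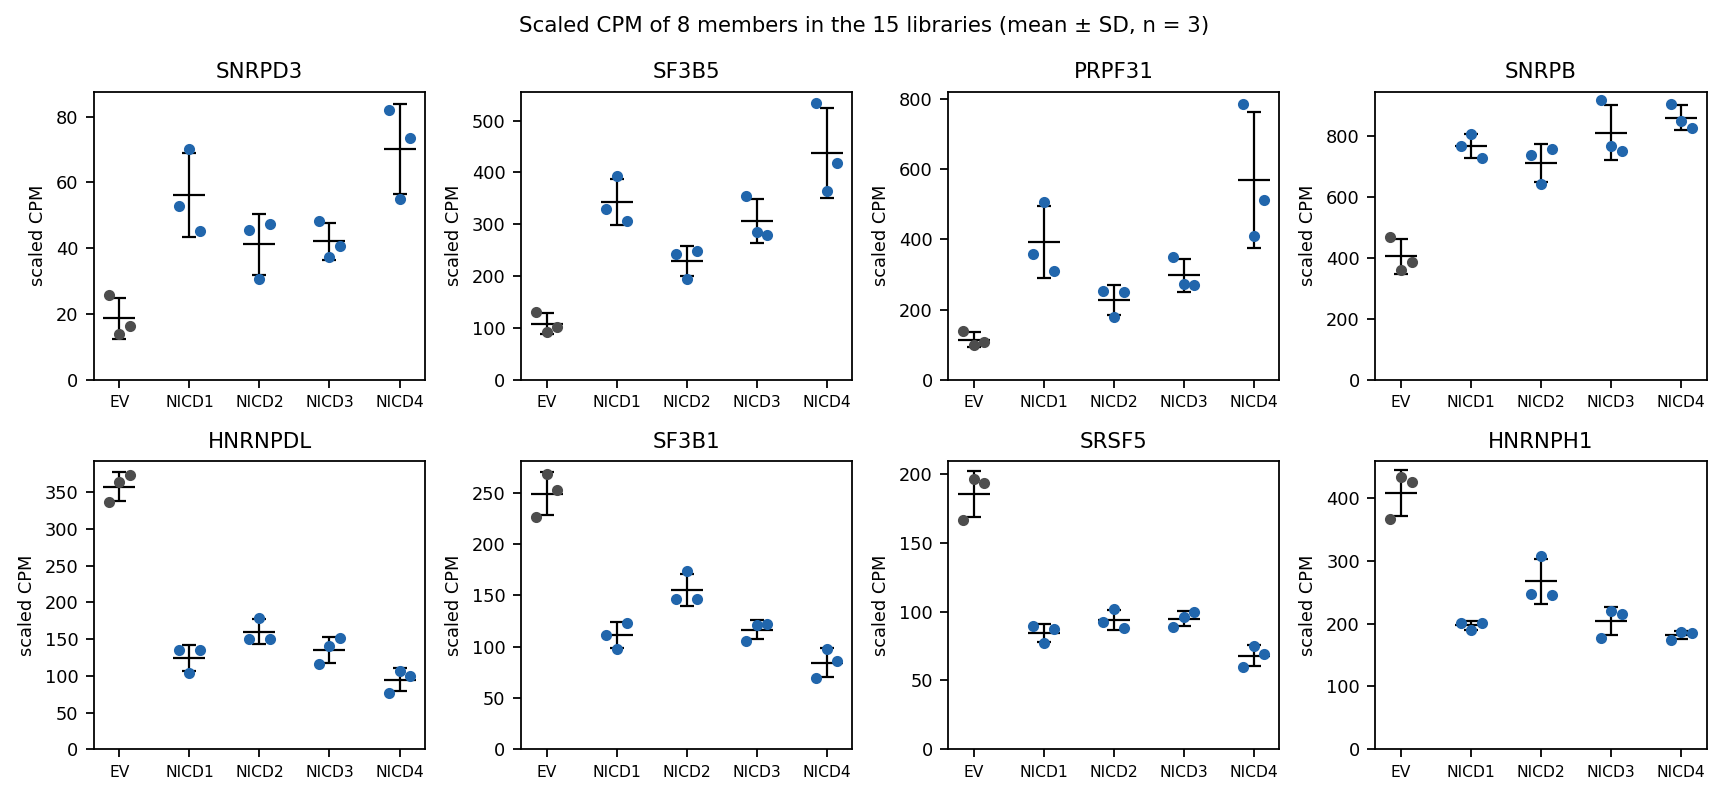
Scaled CPM (y axis) of 8 members in each of the 15 libraries (points) by group (x axis), with the mean and SD of 3 libraries as bars. In the upper row every NICD library lies above every EV library, and in the lower row every NICD library lies below.

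Of the Sm ring, which every spliceosomal snRNP but U6 carries, 7 of 8 members were tested. Called higher were 6, 5, 6 and 4 of them, and 1 was called lower, SNRPG in NICD4. The background over all tested genes, here and for each class below, was 35.6%, 29.6%, 33% and 37.4% higher and 39.8%, 29.9%, 36.2% and 43.6% lower. With the GC trend removed it was 34.6%, 30%, 32.8% and 36.8% higher and 36%, 29.6%, 33.4% and 37.9% lower. In NICD1 to NICD3 0 Sm ring proteins were lower by limma, 0 at an unadjusted p under 0.05 and 0 by limma voom. The class median was 0.62, 0.56, 0.71 and 0.34, and 0.80, 0.59, 0.64 and 0.93 with the GC trend removed, when 6, 6, 7 and 6 were called higher and 0 lower (also 0 at an unadjusted p under 0.05 by limma). SNRPD3 (chr22:24951471-24978020 on GRCh37), the core protein SmD3, stood at 25.6, 13.8 and 16.5 scaled CPM in the EV libraries, 52.8, 70.2 and 45.2 in NICD1, 45.5, 30.6 and 47.4 in NICD2, 48.2, 37.2 and 40.7 in NICD3 and 82.0, 55.0 and 73.5 in NICD4. No NICD library overlapped EV. The changes were 1.61, 1.17, 1.22 and 1.94 (SE 0.23, limma adjusted p 2.22e-05, 0.000666, 0.000336 and 2.56e-06), and 1.52, 1.09, 1.12 and 1.85 with the GC trend removed. SNRPD3 overlaps GUCD1, a gene of 20707 reads against its own 11669, and the sources used here do not state whether counting used strand, without which reads of a shared stretch cannot be assigned.

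SNRPB, which encodes the SmB proteins and is known to control its own splicing, had 405 ± 57.5 (SD, n = 3) scaled CPM in EV and 768 ± 39.5, 712 ± 62.2, 812 ± 91.8 and 861 ± 40.3 in NICD1 to NICD4. Its lowest NICD library, at 642, was above the highest EV library, at 469. The changes were 0.93, 0.82, 1.01 and 1.10 (SE 0.11, largest limma adjusted p 2.57e-05) and 0.49, 0.59, 0.64 and 0.49 with the GC trend removed. SNRPD2 (SmD2), the member with the highest level per kilobase in every group, had 862, 594 and 724 scaled CPM in EV, 1514, 1710.0 and 1387 in NICD1, 1152, 906 and 1154 in NICD2, 1541, 1266 and 1196 in NICD3 and 2059.9, 1594 and 1769 in NICD4. All NICD libraries were above EV, with changes of 1.09, 0.57, 0.89 and 1.32 (SE 0.15, largest limma adjusted p 0.00544) and 0.80, 0.40, 0.63 and 0.93 without the GC trend. SNRPD1 (SmD1), whose longest annotated transcript has a GC content of 40.5%, rose less, by 0.49, 0.40, 0.49 and 0.34. With the GC trend removed it rose by 1.04, 0.68, 0.93 and 1.08. Under library totals alone its change in NICD4 was -0.20. SNRPF (SmF) and SNRPE (SmE) rose in NICD1 and NICD3, and SNRPF also in NICD2. Their changes in NICD4 were 0.31 and 0.23 and did not pass the test, while with the GC trend removed they were 1.25 and 0.48 and did (limma adjusted p 6.19e-07 and 0.000519). SNRPE turned to -0.08 in NICD1 and -0.04 in NICD3 when the trend on length alone was removed.

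SNRPG (SmG) was the exception. It had 156, 126 and 161 scaled CPM in EV and 51.4, 105 and 76.8 in NICD4, all below EV, a change of -0.98 (limma adjusted p 0.000366) that was -0.19 with the GC trend removed (adjusted p 0.223). Its other 3 NICD groups overlapped EV. SNRPN, a paralogue of SNRPB expressed mainly in neurons, was too low to test: the EV libraries held 5 to 15 reads, 27 in all, and the 12 NICD libraries 0. With a floor of 3 reads over each group this was at least 5.30-fold, 6.70-fold, 7.27-fold and 4.10-fold lower in NICD1 to NICD4. The floor covers counting error only, and the locus is shared with 3 other counted entries.

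Of the proteins specific to U1 and U2, SNRPA, which binds a loop of U1 RNA, and SNRPC, which contacts the 5′ splice site, rose in all 4 groups. Of the 4 members of this class 2 were called higher in each group and 1 lower in NICD1 and in NICD4, and 4, 4, 4 and 3 were higher with the GC trend removed. SNRPC had 264, 198 and 231 scaled CPM in EV against 403, 427 and 382 in NICD1, 358, 318 and 365 in NICD2, 445, 379 and 378 in NICD3 and 409, 398 and 414 in NICD4. The changes were 0.81, 0.59, 0.80 and 0.83 (SE 0.10, largest limma adjusted p 0.000252), and removing the GC trend left 0.78, 0.55, 0.75 and 0.82. SNRPA had 164, 131 and 138 scaled CPM in EV against 278, 371 and 263 in NICD1, 239, 179 and 235 in NICD2, 328, 255 and 247 in NICD3 and 512, 333 and 392 in NICD4, again without overlap. It rose by 1.06, 0.59, 0.93 and 1.497 (SE 0.18), and by 0.59, 0.34, 0.55 and 0.85 with the trend removed. SNRPA in NICD2 was no longer called without EV replicate 2 (0.50, limma adjusted p 0.0528). Of the U2 proteins, SNRPA1 was called lower in NICD1 and NICD4, at -0.31 and -0.60, and its partner SNRPB2, with which it binds U2 RNA, was called in no comparison, with changes of 0.029, 0.15, 0.16 and -0.0059. With the GC trend removed 4, 4, 4 and 3 of these 4 members were called higher.

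The SF3A and SF3B complexes position U2 on the branch site, and their members were called in both directions, as were genes in general. Of their 9 members 4, 5, 4 and 4 were called higher (background 35.6%, 29.6%, 33% and 37.4%) and 2, 2, 2 and 3 lower (background 39.8%, 29.9%, 36.2% and 43.6%). With the GC trend removed 5, 5, 6 and 4 were higher and 2, 2, 2 and 3 lower. SF3B5, the smallest subunit (exons of 693 bases, chr6:144416018-144416754), stood at 130.4, 91.8 and 102 scaled CPM in EV, 330.3, 393 and 306 in NICD1, 243, 195 and 249 in NICD2, 355, 285 and 279 in NICD3 and 534, 364 and 418 in NICD4. All 12 NICD libraries were above EV. It rose by 1.68, 1.09, 1.51 and 2.02 (SE 0.16, limma adjusted p 6.03e-07, 6.20e-05, 2.06e-06 and 7.37e-08) and by 1.29, 0.89, 1.19 and 1.503 with the GC trend removed. SF3A2, the member with the highest GC content (66.6%), had 109.7, 97.1 and 93.7 scaled CPM in EV and 264, 355 and 225, 209, 150.0 and 211, 306, 212 and 205 and 538, 319 and 419 in NICD1 to NICD4. No NICD library overlapped those of EV, and it rose by 1.47, 0.91, 1.25 and 2.06 (SE 0.21, largest limma adjusted p 0.00196), and by 0.50, 0.41, 0.50 and 0.76 without the trend. SF3B4 rose by 0.37, 0.49, 0.57 and 0.45, but in NICD1 and NICD4 that became 0.062 and 0.052 without the GC trend and -0.09 and -0.09 under library totals.

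SF3B1 (chr2:198256698-198299815), the large scaffold that grips the branch site and is often mutated in blood cancers, moved the other way. It had 226, 269 and 253 scaled CPM in EV, 111, 98.2 and 124 in NICD1, 147, 174 and 146 in NICD2, 106, 121 and 123 in NICD3 and 69.4, 98.3 and 86.1 in NICD4. All NICD libraries were below EV, those of NICD2 being the least low. The changes were -1.17, -0.68, -1.10 and -1.57 (SE 0.13, limma adjusted p 1.62e-06, 0.00038, 3.82e-06 and 7.00e-08) and -0.65, -0.42, -0.67 and -0.86 with the GC trend removed. SF3B3 changed by less, -0.20, -0.29, -0.18 and -0.32, and turned to 0.18, 0.18 and 0.13 in NICD1, NICD3 and NICD4 when the trend on length alone was removed. Of the other 4 members, SF3A1 was higher only in NICD2 (0.28), SF3B2 in NICD2 and NICD3 (0.31 and 0.25), SF3A3 in NICD1 and NICD4 (0.23 and 0.31), and SF3B6, which touches the branch point, was lower in NICD4. Under library totals the calls of SF3A1, of SF3A3, and of SF3B2 in NICD3 changed sign. SF3A1 in NICD2 was no longer called without EV replicate 1 (0.18, limma adjusted p 0.0806). SF3A3 in NICD1 was no longer called without EV replicates 1, 2 or 3 or NICD1 replicate 2 (0.17 to 0.24, limma adjusted p 0.0689 to 0.154). SF3B3 in NICD1 was no longer called without NICD1 replicate 2 (-0.18, limma adjusted p 0.0534). SF3B3 in NICD3 was no longer called without EV replicate 2 or NICD3 replicates 2 or 3 (-0.18 to -0.14, limma adjusted p 0.0596 to 0.128). Over the 9 members 4, 5, 4 and 4 were called higher and 2, 2, 2 and 3 lower.

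The 13 PRPF proteins had 5, 5, 5 and 4 called higher (background 35.6%, 29.6%, 33% and 37.4%) and 7, 4, 7 and 6 lower (background 39.8%, 29.9%, 36.2% and 43.6%). Removal of the GC trend left 5, 3, 5 and 8 higher (background 34.6%, 30%, 32.8% and 36.8%) and 3, 2, 4 and 2 lower (background 36%, 29.6%, 33.4% and 37.9%). Higher calls then outnumbered lower ones in NICD1, NICD3 and NICD4 too. PRPF31 (chr19:54618837-54635140), which holds the U4/U6 and U5 snRNPs together and is mutated in retinitis pigmentosa, showed the largest rise of all members in NICD1 and NICD4. It had 137, 97.5 and 107 scaled CPM in EV and 357, 507 and 309.9 in NICD1, 254, 178 and 251 in NICD2, 350.3, 272 and 269 in NICD3 and 786, 409 and 512 in NICD4. The spread was wide in NICD4, its replicate 1 being the highest, but no library overlapped EV. The changes were 1.76, 0.99, 1.39 and 2.28 (SE 0.23, limma adjusted p 1.02e-05, 0.00218, 0.000111 and 5.77e-07). They were 1.26, 0.73, 0.98 and 1.59 with the GC trend removed, and 2.02 in NICD4 without NICD4 replicate 1. PRPF31 overlaps TFPT (4988 reads against 79719). PRPF6, a bridging protein of the tri-snRNP, and PRPF19, the ubiquitin ligase of the Prp19 complex, rose by 0.49, 0.36, 0.54 and 0.78 and 0.34, 0.40, 0.40 and 0.83. Without the GC trend these were 0.085, 0.15, 0.20 and 0.23 and -0.039, 0.20, 0.084 and 0.31, and under library totals PRPF19 was at -0.11 in NICD1 and -0.02 in NICD3. PRPF6 in NICD2 was no longer called without EV replicates 2 or 3 or NICD2 replicates 1 or 3 (0.31 to 0.34, limma adjusted p 0.0536 to 0.0694). PRPF19 in NICD1 was no longer called without EV replicates 2 or 3 or NICD1 replicate 2 (0.26 to 0.31, limma adjusted p 0.0806 to 0.107). PRPF19 in NICD2 was no longer called without EV replicates 2 or 3 (0.36, limma adjusted p 0.056 to 0.0565). PRPF19 in NICD3 was no longer called without NICD3 replicate 1 (0.33, limma adjusted p 0.0529).

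PRPF39, an alternative splicing factor of U1, had 30.8, 32.8 and 33.1 scaled CPM in EV and 13.3, 12.1 and 13.7 in NICD1, 19.7, 19.7 and 17.5 in NICD2, 11.96, 15 and 14.7 in NICD3 and 11.3, 12.97 and 12.8 in NICD4. No library overlapped EV, and the changes were -1.30, -0.77, -1.22 and -1.38 (SE 0.10, limma adjusted p 6.52e-08, 2.01e-05, 1.50e-07 and 2.95e-08), or -0.63, -0.42, -0.67 and -0.49 with the GC trend removed. PRPF39 overlaps FKBP3, which had more reads (12419 against 5744). PRPF40B, a homologue of a yeast U1 protein, was the lowest of the PRPF members, with 4.35, 6.35 and 4.67 scaled CPM in EV and 1.79, 1.501 and 1.75 in NICD1, 1.94, 3.23 and 2.86 in NICD2, 2.14, 1.99 and 2.06 in NICD3 and 3.34, 2.74 and 3.79 in NICD4. All NICD libraries were below EV, and the changes were -1.56, -0.94, -1.27 and -0.62 (SE 0.20). Its GC content of 59% put it against the trend, and without the trend the changes were -2.07, -1.20, -1.68 and -1.32. Its call in NICD4 was lost without EV replicate 2 (-0.47, limma adjusted p 0.0619) or without NICD4 replicate 2 (-0.50, adjusted p 0.0504).

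SR proteins were called lower in 8 of 10 tested members in NICD1, 4 in NICD2, 7 in NICD3 and all 10 in NICD4 (background 39.8%, 29.9%, 36.2% and 43.6%). Called higher were 0 by limma in each group (background 35.6%, 29.6%, 33% and 37.4%), also 0 at an unadjusted p under 0.05 and 0 by limma voom. The class median was -0.69, -0.27, -0.41 and -0.97. Without the GC trend the median stood at -0.098, 0.0041, 0.029 and -0.20, with 3, 2, 2 and 5 called lower and 2, 2, 2 and 3 higher. The longest annotated transcripts of this class have a median GC content of 40.6%.

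SRSF5 (chr14:70193617-70238722), a shuttling SR protein, fell on both scales. It had 167, 197 and 194 scaled CPM in EV and 89.2, 76.9 and 87.1 in NICD1, 92.3, 102 and 88.0 in NICD2, 89.0, 96.1 and 99.7 in NICD3 and 59.7, 75.2 and 69.0 in NICD4. All NICD libraries were below EV. The changes were -1.14, -0.98, -0.96 and -1.45 (SE 0.10, limma adjusted p 2.39e-07, 1.61e-06, 1.46e-06 and 1.74e-08), and -0.58, -0.70, -0.51 and -0.70 without the GC trend. SRSF1, the founding member and an oncogene in several tumours, had 350.3 ± 6.68 scaled CPM in EV and 151 ± 28.2 in NICD4, and 219 ± 33.4, 298 ± 17.8 and 263 ± 16.1 in NICD1 to NICD3. Its changes were -0.69, -0.23, -0.41 and -1.23, and -0.17, 0.023, 0.0011 and -0.53 without the GC trend. SRSF2, which binds exonic enhancers, was called lower in NICD1, NICD3 and NICD4 on both scales (-0.70, -0.32, -0.45 and -1.30 over the 4 groups, and -0.47, -0.22, -0.28 and -0.93 without the trend). SRSF2 in NICD3 was no longer called without NICD3 replicate 1 (-0.40, limma adjusted p 0.0617). SRSF10 and SRSF6 were called lower in all 4 groups (-0.70, -0.33, -0.56 and -0.90 and -0.60, -0.32, -0.40 and -0.61), and without the GC trend no change of SRSF10 passed the test (-0.11, -0.034, -0.084 and -0.13) and SRSF6 stood at -0.0098, -0.015, 0.081 and 0.18. SRSF11 was called lower in all 4 groups (-0.76, -0.53, -0.66 and -0.93), and without the trend only in NICD2 (-0.18). SRSF3, the smallest SR protein, was called lower only in NICD4 (-0.48), and without the trend it was higher there (0.33, limma adjusted p 0.0018).

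Of the hnRNPs, 22 of 24 were tested. In NICD1 to NICD4 16, 8, 12 and 19 were called lower (background 39.8%, 29.9%, 36.2% and 43.6%) against 2, 1, 1 and 2 higher (background 35.6%, 29.6%, 33% and 37.4%). With the GC trend removed 8, 5, 7 and 11 were called lower and 5, 4, 5 and 4 higher. HNRNPDL (chr4:83343717-83351294), a relative of the AU-rich element binding protein HNRNPD, had the largest fall of the class on both scales. It stood at 336, 364 and 373.1 scaled CPM in EV, 135, 104 and 135 in NICD1, 149.6, 179 and 150.4 in NICD2, 116, 140.1 and 151 in NICD3 and 76.7, 107 and 100.1 in NICD4. All 12 NICD libraries were below the lowest of EV, those of NICD4 the furthest. The changes were -1.53, -1.17, -1.41 and -1.93 (SE 0.14, limma adjusted p 3.11e-07, 7.64e-06, 8.86e-07 and 2.54e-08), and -1.24, -1.03, -1.18 and -1.48 with the GC trend removed.

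HNRNPH1, which binds G-rich runs, had 409 ± 36.6 scaled CPM in EV and 198 ± 7.22, 267 ± 35.3, 204 ± 23 and 182 ± 6.38 in NICD1 to NICD4. No library overlapped EV, and the changes were -1.04, -0.62, -1.002 and -1.16 (largest limma adjusted p 0.000209), or -0.36, -0.26, -0.44 and -0.25 without the GC trend. HNRNPR changed by -0.81, -0.61, -0.80 and -1.17, and without the trend by -0.10, -0.24, -0.21 and -0.23, where NICD1 no longer passed the test. Several of the abundant core hnRNPs, which coat nascent transcripts, were lower as measured, while without the GC trend most of their changes were near 0 or positive. HNRNPA2B1, the hnRNP with the highest level per kilobase in EV, went from 1612 ± 89.3 in EV to 1138 ± 93.6, 1458 ± 79.8, 1268 ± 107 and 853 ± 134 scaled CPM, changes of -0.50, -0.15, -0.35 and -0.93 that became 0.074, 0.15, 0.12 and -0.16 without the GC trend. It overlaps CBX3 (86296 reads against 387569). HNRNPA2B1 in NICD3 was no longer called without NICD3 replicate 1 (-0.28, limma adjusted p 0.0696).

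HNRNPA1 (-0.34, -0.38, -0.31 and -0.64), HNRNPK (-0.29, -0.29, -0.29 and -0.56), HNRNPC (-0.22, 0.041, -0.023 and -0.51) and HNRNPU (-0.23, -0.048, -0.18 and -0.41) were called lower in all 4 groups (HNRNPA1 and HNRNPK), in NICD1 and NICD4 (HNRNPC) or in all but NICD2 (HNRNPU). HNRNPC in NICD1 was no longer called without EV replicate 3, NICD1 replicates 1, 2 or 3, NICD2 replicates 1 or 3, NICD3 replicates 2 or 3 or NICD4 replicate 3 (-0.24 to -0.16, limma adjusted p 0.0507 to 0.172). HNRNPU in NICD3 was no longer called without EV replicates 2 or 3, NICD1 replicate 1, NICD2 replicates 1 or 3 or NICD3 replicates 1, 2 or 3 (-0.20 to -0.16, limma adjusted p 0.0502 to 0.12). Without the GC trend HNRNPA1 stood at 0.052, -0.19, 0.00085 and -0.070 and HNRNPK at 0.16, -0.067, 0.063 and 0.072, while HNRNPC (0.39, 0.35, 0.48 and 0.30) and HNRNPU (0.42, 0.29, 0.35 and 0.45) were called higher in all 4 groups. On that scale HNRNPA1 was still called lower in NICD2 (limma adjusted p 0.012). HNRNPA1 shares long stretches with HNRNPA1L2, HNRNPA1L3 and many pseudogenes, so reads can be split between them. HNRNPH2 and HNRNPH3, relatives of HNRNPH1, were called lower in all 4 groups (-0.81, -0.44, -0.52 and -1.16 and -0.58, -0.33, -0.50 and -0.90), with -0.35, -0.22, -0.16 and -0.52 and -0.20, -0.15, -0.20 and -0.35 without the trend. HNRNPH3 in NICD2 was no longer called without NICD2 replicate 1 (-0.27, limma adjusted p 0.0654). HNRNPAB was lower in NICD1 and NICD4 (-0.50 and -0.88) and more so without the trend (-0.76 and -1.21). HNRNPL, which binds CA repeats, was also lower in those groups alone (-0.32 and -0.72, and -0.33 and -0.68 without the trend). HNRNPL in NICD1 was no longer called without NICD1 replicate 2 (-0.23, limma adjusted p 0.0989). HNRNPA3, a close relative of HNRNPA2B1, was called lower in NICD4 (-0.38), where removing the trend turned the change to 0.50. HNRNPM, whose longest annotated transcript has a GC content of 54.9%, was called lower in NICD1 and NICD4 (-0.26, 0.041, -0.054 and -0.64 over the 4 groups), and without the trend also in NICD3 (-0.55, -0.13, -0.31 and -1.03). HNRNPM in NICD1 was no longer called without EV replicate 3, NICD1 replicate 2 or NICD3 replicate 2 (-0.27 to -0.18, limma adjusted p 0.0506 to 0.172). HNRNPUL1 was the hnRNP called higher in all 4 groups, by 0.55, 0.27, 0.42 and 0.62. Without the GC trend this was 0.18, 0.070, 0.11 and 0.13, called only in NICD1, and under library totals it was -0.01 in NICD2. HNRNPUL1 in NICD2 was no longer called without EV replicates 1, 2 or 3, NICD1 replicate 1, NICD2 replicates 1 or 3, NICD3 replicates 2 or 3 or NICD4 replicate 3 (0.21 to 0.27, limma adjusted p 0.0504 to 0.163).

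Tested members not described singly included HNRNPA0, HNRNPD, HNRNPF, HNRNPLL, HNRNPUL2, SRSF4, SRSF9, PRPF3, PRPF18, PRPF38B and PRPF4B. Their changes lay between -1.14 (HNRNPLL in NICD4) and 0.30 (PRPF3 in NICD3), and without the GC trend between -0.31 (HNRNPLL in NICD4) and 0.52 (PRPF4B in NICD4). HNRNPA1L2, at 1.97 ± 0.180 scaled CPM in EV, and HNRNPA1L3 are nearly identical to HNRNPA1 and are not interpreted on their own.

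**Figure D4:**
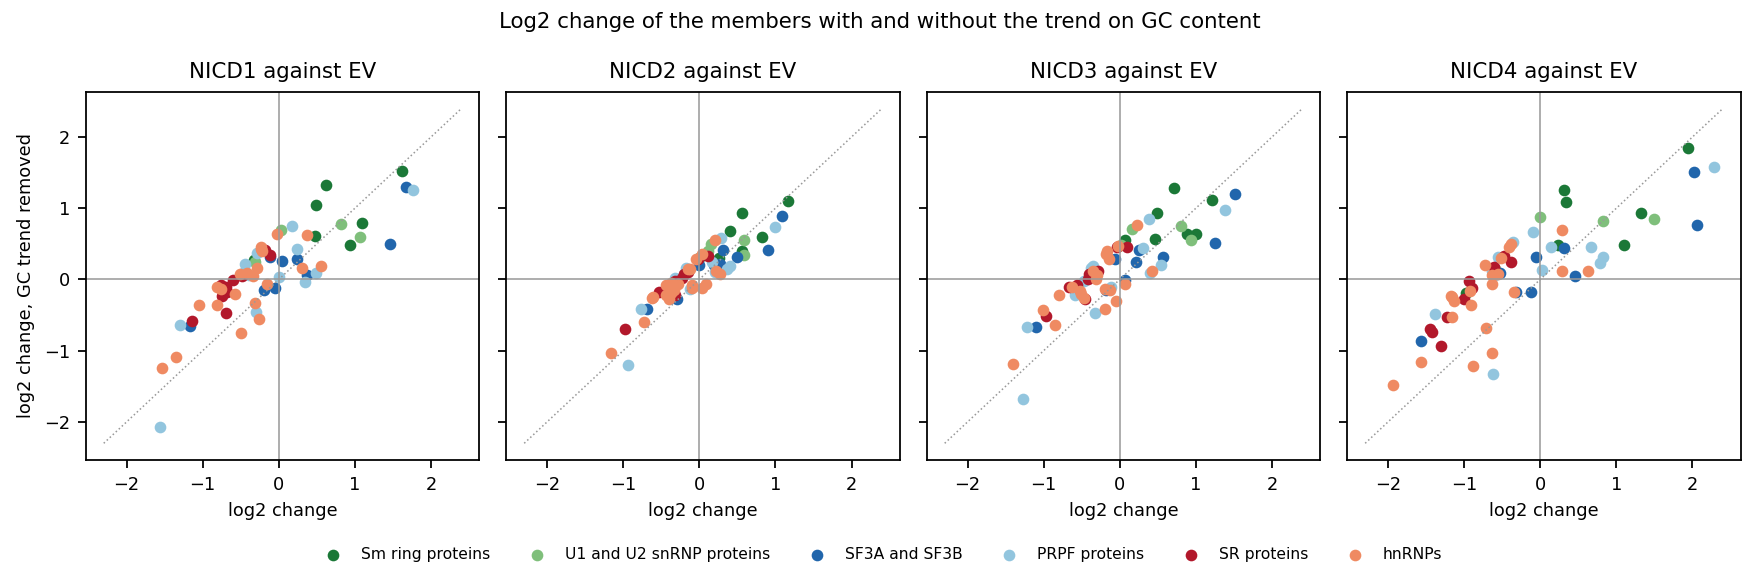
Log2 change against EV of each tested member as measured (x axis) and with each library's trend on GC content removed (y axis), by NICD group, coloured by class. Points left of 0 and above it are members whose fall turned to a rise, 15 of the 40 called lower in NICD4 among them, and most of them are hnRNPs, SR and PRPF proteins.

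Leaving out NICD4 replicate 1, which the labels leave in doubt, changed the rise in NICD4 to 1.82 for SNRPD3, 1.86 for SF3B5 and 1.87 for SF3A2, and the fall to -1.79 for HNRNPDL, -1.44 for SF3B1, -1.36 for SRSF5 and -0.71 for SNRPG, all of them still called.

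The 4 NICD groups were compared with each other, which leaves EV out of the contrast. By the limma F-test over NICD1 to NICD4, 50 of 65 members differed (background 67.9%), and 36 with the GC trend removed (background 62.8%). All 10 SR proteins and 21 of 22 hnRNPs were among the 50, against 3 of 7 Sm ring proteins. Among the 36 were 5 of the SR proteins, 11 of the hnRNPs and 4 of the Sm ring proteins, so that this difference between the classes was no longer seen. NICD4 stood furthest from NICD2, with 51 members called, 12 higher and 39 lower in NICD4 (background 63.5% in either direction), and 35 called with the GC trend removed (background 54.1%). NICD4 against NICD3 gave 44 (background 49%), and 29 without the GC trend (background 44.6%). NICD2 against NICD1 gave 26 (background 37.2%), of which 20 were higher in NICD2, 22 with the GC trend removed (background 32%), and 7 without NICD1 replicate 2 and 7 without NICD2 replicate 2. NICD4 against NICD1 gave 26 (background 27.2%) and 14 with the GC trend removed (background 27.5%), but 5 without NICD1 replicate 1, 4 without NICD1 replicate 3, 6 without NICD4 replicate 1, 13 without NICD4 replicate 3 and 2 with only these 2 groups in the fit. NICD3 against NICD2 gave 4 (background 15%): HNRNPH1, PRPF39, PRPF8 and SF3B1, all lower in NICD3. There were 7 with the GC trend removed (background 16.5%), and as measured the number was 2 without NICD2 replicate 2 or NICD3 replicate 1 and 7 without NICD4 replicate 1. NICD3 and NICD1 differed in 0 members by limma (background 6.72%), with 10 at an unadjusted p under 0.05, and in 0 by limma voom, also with 10 unadjusted. There were 2 with the GC trend removed (background 9.66%). As measured the number was 1 without NICD4 replicate 1.

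PRPF8 (chr17:1553923-1588154), the protein at the heart of the catalytic core, was the one member called in opposite directions. It had 306, 319.8 and 293 scaled CPM in EV, 246, 261 and 242 in NICD1, 359, 333 and 372 in NICD2, 268, 239 and 227 in NICD3 and 554, 431 and 475 in NICD4. NICD1 and NICD3 lay below EV, and NICD2 and NICD4 above it. Against EV the changes were -0.30, 0.21, -0.33 and 0.66 (SE 0.097, limma adjusted p 0.0126, 0.0731, 0.00798 and 1.73e-05), and -0.46, 0.10, -0.48 and 0.46 without the GC trend. NICD4 exceeded NICD3 by 0.99 (limma adjusted p 8.07e-06) and NICD2 by 0.45 (adjusted p 0.00112), and without NICD4 replicate 1 the change in NICD4 against EV was 0.56. With the trend on length alone removed the changes in NICD1 and NICD3 turned to 0.07 and 0.03.

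The members with the next smallest F-test p were SRSF1, SRSF10, PRPF38A and SRSF7. SRSF7, an SR protein with a zinc knuckle, had 214, 212 and 230.2 scaled CPM in EV, 142, 102 and 154 in NICD1, 182, 239 and 177 in NICD2, 157, 189 and 194 in NICD3 and 60.8, 109 and 81.2 in NICD4. NICD2 overlapped EV, and NICD4 was below NICD2 and NICD3 in every library. The differences of NICD4 were -1.28 from NICD2 (limma adjusted p 0.000101) and -1.14 from NICD3 (adjusted p 0.000535), and -0.84 and -0.85 without the GC trend. The difference of SRSF1 between NICD4 and NICD2 was -0.996, and -0.55 without the trend. Without NICD4 replicate 1 the changes against EV in NICD4 were -1.22 for SRSF7 and -1.08 for SRSF1. PRPF38A, a protein of the pre-catalytic spliceosome, was called higher in NICD1, NICD2 and NICD3 (0.18, 0.29 and 0.39) and stood at -0.098 in NICD4. With the GC trend removed its 4 changes were 0.75, 0.58, 0.85 and 0.66, and under library totals it was at -0.28 in NICD1 and -0.03 in NICD3. PRPF38A in NICD1 was no longer called without EV replicates 1, 2 or 3 or NICD1 replicates 1 or 3 (0.13 to 0.16, limma adjusted p 0.0919 to 0.141).

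**Figure D5:**
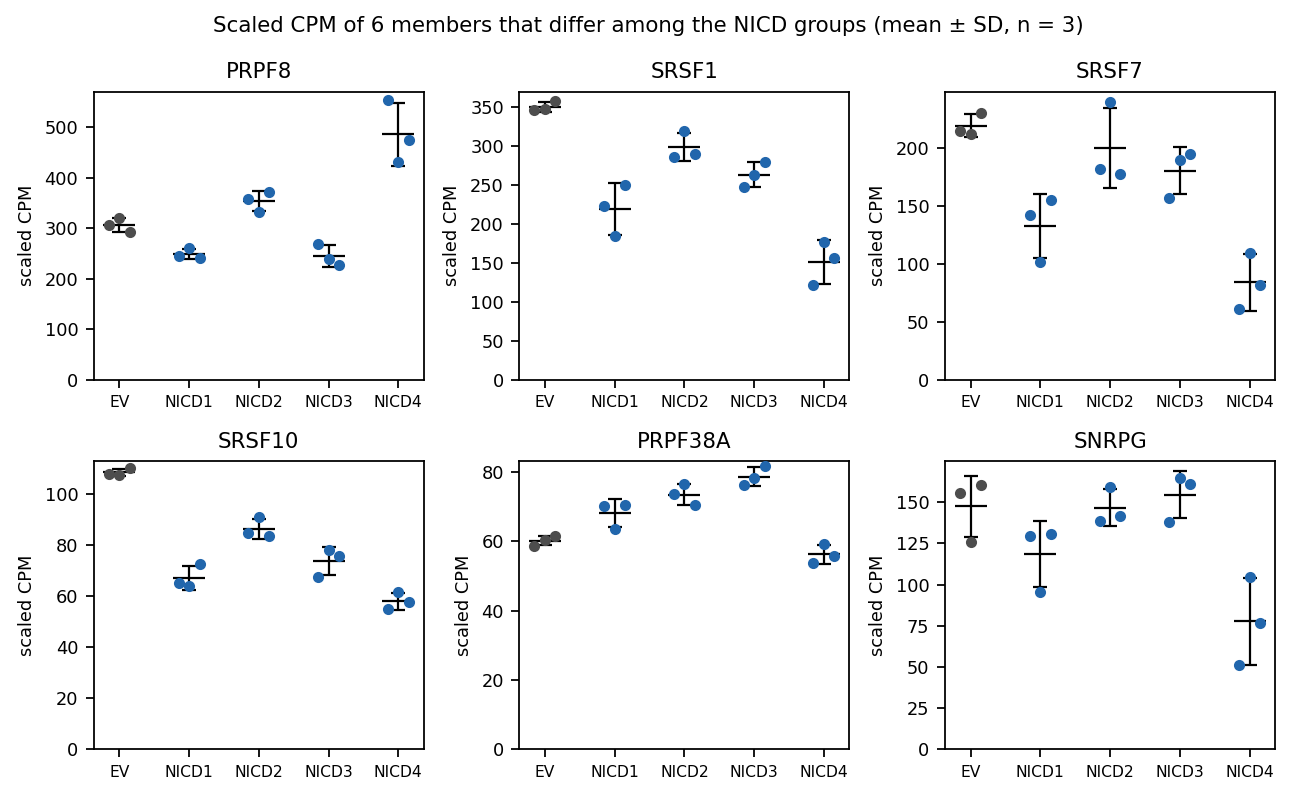
Scaled CPM (y axis) of 6 members in the 15 libraries (points) by group (x axis), with mean and SD of 3 libraries as bars. PRPF8 is highest in NICD4, while SRSF1, SRSF7, SRSF10 and SNRPG are lowest there. PRPF38A is lower in NICD4 than in NICD3 or NICD2.

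Per kilobase of exon, levels can be set between genes. SNRPD2 led in every group, with 452 ± 83.4 scaled CPM per kilobase in EV and 1124 ± 146 in NICD4, followed by SNRPB (317 ± 45.0 and 674 ± 31.5). SF3B5 was the third in all 4 NICD groups (495 ± 64.4, 330.4 ± 42.9, 442 ± 61.2 and 632 ± 125) and not among the first 5 in EV. HNRNPA2B1 was the fourth in EV (174 ± 9.64) and not among the first 5 in any NICD group. The exon length used is that of all annotated isoforms together, which lowers the value of genes with many long isoforms. The remaining members too low to test were SRSF12 with 0 to 3 reads per library, HNRNPCL1 with 0 or 1, and HNRNPCL4, which had 11 reads in EV and 2 over all NICD libraries.

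Other genes of the splicing pathway, in 6 lists, changed in both directions. Their counts stand beside a background over all tested genes of 35.6%, 29.6%, 33% and 37.4% higher and 39.8%, 29.9%, 36.2% and 43.6% lower in NICD1 to NICD4, and with the GC trend removed of 34.6%, 30%, 32.8% and 36.8% higher and 36%, 29.6%, 33.4% and 37.9% lower. Of 32 snRNP proteins outside the members 14, 16, 18 and 14 were called higher in NICD1 to NICD4 and 8, 5, 8 and 13 lower, and with the GC trend removed 21, 19, 19 and 16 higher and 6, 6, 5 and 9 lower. LSM7 and LSM4 of the U6 ring rose most (1.56, 0.99, 1.45 and 1.88 and 1.43, 0.92, 1.20 and 1.56), and without the GC trend by 0.87, 0.64, 0.91 and 0.93 and 0.88, 0.64, 0.76 and 0.81. SNRNP48 of the minor spliceosome was called lower in all 4 groups (-0.76, -0.65, -0.88 and -1.004), but without the GC trend it was at -0.12, -0.31, -0.35 and -0.15 and not called in NICD1 or NICD4 (limma adjusted p 0.295 and 0.194). U2AF1, which reads the 3′ splice site, was called higher in NICD2, NICD3 and NICD4 (0.30, 0.35 and 0.39), the last 2 turning to -0.07 and -0.15 under library totals. Its 4 changes were 0.36, 0.48, 0.65 and 0.95 without the GC trend, all called. U2AF1 in NICD2 was no longer called without EV replicate 2 or NICD2 replicates 2 or 3 (0.22 to 0.31, limma adjusted p 0.0509 to 0.13). U2AF1 in NICD3 was no longer called without EV replicate 2 (0.27, limma adjusted p 0.0563). Of 23 Prp19 complex and catalytic step factors 9, 8, 10 and 9 were higher and 10, 5, 7 and 12 lower, and with the GC trend removed 11, 9, 11 and 10 higher and 6, 2, 5 and 8 lower. XAB2 rose by 1.42, 0.86, 1.30 and 2.17 and the helicase DHX35 changed by -2.09, -1.20, -1.49 and -2.82, and without the GC trend by 0.78, 0.53, 0.79 and 1.28 and -2.07, -1.21, -1.49 and -2.73. Of 7 exon junction complex genes 3, 5, 3 and 4 were higher and 0, 0, 0 and 2 lower, the export adaptor ALYREF rising most (0.86, 0.72, 0.89 and 0.75). In NICD1 to NICD3 0 of these were lower at an unadjusted p under 0.05 by limma and 0 by limma voom. After removal of the GC trend 3, 5, 5 and 3 were higher and 0 lower in any group (also 0 at an unadjusted p under 0.05 by limma), and ALYREF was at 0.43, 0.49, 0.54 and 0.16, not called in NICD4 (limma adjusted p 0.0835).

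SR proteins are phosphorylated by SRPK and CLK kinases and carried into the nucleus by TNPO3. Of the 9 genes of this list 1, 1, 1 and 2 were called higher and 7, 5, 7 and 6 lower. Removing the GC trend gave 2, 0, 1 and 3 higher (in NICD2 also 0 at an unadjusted p under 0.05 by limma) and 4, 4, 6 and 6 lower. CLK1 changed by -1.27, -0.58, -1.43 and -1.87, TNPO3 by -1.38, -1.06, -1.33 and -1.88 and SRPK1 by -0.48, -0.13, -0.41 and -0.78, of which SRPK1 in NICD2 did not pass the test. The changes of the 3 genes without the GC trend were -0.57, -0.22, -0.86 and -0.94 for CLK1, -1.26, -1.02, -1.25 and -1.65 for TNPO3 and -0.21, -0.0086, -0.20 and -0.35 for SRPK1. CLK1 in NICD2 and SRPK1 in NICD1 and NICD3 were then no longer called (limma adjusted p 0.15, 0.0501 and 0.0626). CLK1 in NICD2 was no longer called without EV replicates 2 or 3 or NICD2 replicates 1 or 3 (-0.61 to -0.51, limma adjusted p 0.0576 to 0.0983). SRPK1 in NICD3 was no longer called without NICD3 replicate 1 (-0.36, limma adjusted p 0.0503). The SMN complex and its partners load Sm rings onto snRNA, and of 14 such genes 4, 3, 4 and 2 were higher and 9, 4, 7 and 9 lower. These became 4, 5, 5 and 4 higher and 5, 4, 4 and 5 lower with the GC trend removed. PRMT5, which methylates Sm proteins before loading, had 106, 149 and 139 scaled CPM in EV and 12.1, 28.0 and 17.3 in NICD4, without overlap, a change of -2.85. In NICD1 to NICD3 it changed by -2.12, -0.96 and -1.31, and without the GC trend the 4 changes were -2.24, -1.05, -1.43 and -2.98. PRMT5 in NICD2 was no longer called without EV replicates 2 or 3 or NICD2 replicates 1 or 3 (-0.94 to -0.79, limma adjusted p 0.0703 to 0.117). SMN1 was lower in NICD1 (-1.40) and NICD4 (-2.51), where its near-identical copy SMN2 can take its reads, while GEMIN7 rose by 1.46, 1.02, 1.17 and 1.59. SMN1 was at -0.93 and -1.85 in these groups without the GC trend, and GEMIN7 at 1.13, 0.83, 0.89 and 1.14.

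Among 48 tested tissue-specific and other splicing regulators 13, 13, 14 and 13 were called higher and 27, 23, 25 and 29 lower, and with the GC trend removed 17, 12, 12 and 17 higher and 19, 15, 17 and 19 lower. RBM47, an epithelial RNA-binding protein, had the largest rise of all 6 lists, from 0.589, 0.494 and 0.612 scaled CPM in EV to 26.7, 32.3 and 21.96 in NICD1, 27.2, 19.9 and 25.9 in NICD2, 31.2, 24.6 and 24.8 in NICD3 and 26.7, 17.6 and 19.9 in NICD4. No library overlapped EV, and the changes were 5.44, 5.29, 5.44 and 5.10 (largest limma adjusted p 3.51e-11), or 5.50, 5.30, 5.48 and 5.25 without the GC trend. RBM20, known for splicing of titin in heart muscle, was low in EV at 0.770, 0.617 and 0.536 scaled CPM and rose by 0.97, 2.38, 1.61 and 2.25, or 0.90, 2.32, 1.54 and 2.20 without the GC trend. ESRP1, which sets epithelial exon choice, rose from 26.0 ± 0.982 to 75.1 ± 2.52, 72.4 ± 4.15, 72.4 ± 2.69 and 61.5 ± 0.907 scaled CPM (1.53, 1.47, 1.47 and 1.24), while its paralogue ESRP2 changed by -0.37, -0.20, -0.46 and -0.55, in NICD2 without passing the test. ESRP1 rose by 1.93, 1.67, 1.80 and 1.82 without the GC trend, and ESRP2 was at -0.92, -0.48, -0.89 and -1.30, called in all 4. PTBP2, the neuronal form of PTB, was lower in all 4 groups (-2.61, -1.96, -2.34 and -3.14), as were CELF2 (-2.05, -1.22, -1.63 and -2.84), RBFOX2 (-0.70, -0.57, -0.54 and -0.99) and QKI (-0.89, -0.61, -1.05 and -0.95). Without the GC trend PTBP2 was at -1.90, -1.58, -1.75 and -2.19, CELF2 at -1.60, -1.001, -1.26 and -2.20 and RBFOX2 at -0.49, -0.48, -0.37 and -0.63, all still called. QKI was then at -0.26, -0.29, -0.53 and -0.12, and not called in NICD1 or NICD4 (limma adjusted p 0.053 and 0.367). PTBP1, the widely expressed form, was called higher in NICD1, NICD3 and NICD4 (0.50, 0.31 and 0.62). Without the GC trend its 4 changes were -0.16, -0.077, -0.21 and -0.30, called lower in NICD3 and NICD4 (limma adjusted p 0.0156 and 0.00137). Under library totals PTBP1 was at -0.11 in NICD3. PTBP1 in NICD3 was no longer called without EV replicates 1, 2 or 3 or NICD3 replicate 1 (0.22 to 0.31, limma adjusted p 0.0684 to 0.154). Several of the epithelial, astrocyte and fibroblast markers given above moved between the same groups, and their part in these differences was not tested.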

How the data were processed

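Polyadenylated RNA of 15 libraries was sequenced after TRIzol extraction and TruSeq preparation, per the labels' protocols. The deposited table holds log2 of raw gene counts, per the file headers and its values, and TopHat2 2.0.6, HTSeq and GRCh37 are named in the submitters' processing notes. Undoing the log gave whole numbers within 0.001 for 100% of values. A log2 file calls for a test on a log scale, so no count model was fitted.

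Of 31352 identifiers 29524 were paired with a symbol and 1828 were not. Gene type, exon length and GC content came from GENCODE 29, gene positions from the file on GRCh37, and promoter windows from RefSeq on GRCh38.p14. GC content was taken from the longest annotated transcript of each gene, of any type. A gene was tested if 3 libraries reached 0.548 CPM, which is 10 reads in a library of median depth, and if it had 15 reads in all. Counts were scaled by TMM, a constant of 1 read was added, and limma 3.58.1 (R 4.3.3, statmod 1.5.0) was fitted to all 15 libraries with 1 mean per group and a trended, robust prior. Tests were two-sided, with Benjamini-Hochberg adjustment over all tested genes, and 0.05 as threshold. Trends on GC content or length were removed per library by lowess (span 0.3). The scripts were tested on simulated data. The libraries of a group differed by more than sampling noise (chi-square per gene 1.28 to 40.1) and were counted separately. The lowest value, 1.28, was for NICD2 replicates 1 and 3. Over so many genes a small excess is enough to pass, so the test cannot tell separate cultures from repeated libraries of the same culture.

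Members named in full were, per comparison with EV, the 4 largest rises and falls without overlap, those called in 1 direction in all 4 comparisons (up to 6 each), those called in opposite directions, and the 4 with the smallest F-test p. The other lists were (snRNP proteins outside the members, Prp19 complex and catalytic step factors, exon junction complex, other splicing regulators, SR protein kinases and import, Sm assembly by the SMN complex), beside 4 marker lists (colorectal epithelial, astrocyte and glioma, fibroblast and mesenchymal, blood). The totals of the members include 1 gene that is not reported here by name. Members and lists were chosen with earlier results of these data known. Alternatives were other scalings, constants and filters, limma voom, a replicate block, trends removed, only the compared groups, and each library left out.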

Additional observations from a re-analysis of the deposited data

How the results depend on the processing

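Under median-of-ratios size factors, an added constant of 0.5 or 5, a filter of 50 reads and limma voom, all 19 counts and medians stayed within 1.5 times or within the spread, and no called gene named in the text changed sign. With the replicate block 19, 17, 18 and 16 members were called higher and 33, 20, 28 and 40 lower in NICD1 to NICD4, and the block ended 1 single call (HNRNPC, NICD1 against EV, -0.22 with limma adjusted p 0.0521). The numbers do not pair libraries by the labels: deviations of same-numbered libraries correlated at -0.43 to 0.36, over 0.1 in 13 of 30 pairs, and 6 of 15 libraries correlated best with their own number. Depth limits the 4 untested members. The cause of each change below was not tested.

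Library totals gave 8, 8, 8 and 10 members higher (NICD1 to NICD4), 33 lower in NICD2 and 44 in NICD3, and medians of -0.69, -0.33, -0.56 and -1.06. Removing the GC trend gave 16, 11, 15 and 21 lower, 29 and 28 higher in NICD3 and NICD4, medians of 0.087, 0.11, 0.11 and 0.12, and 2 members called for NICD3 against NICD1, 14 for NICD4 against NICD1, 7 for NICD3 against NICD2 and 29 for NICD4 against NICD3. With the replicate block as well these were 14, 11, 13 and 20 lower, 28 and 28 higher in NICD3 and NICD4, medians of 0.087, 0.11, 0.11 and 0.12, 14 for NICD4 against NICD1 and 7 for NICD3 against NICD2. Removing GC and length trends, an alternative chosen after seeing the data, gave 29, 29 and 29 higher in NICD1, NICD3 and NICD4, 13, 8, 13 and 17 lower, medians of 0.12, 0.10, 0.12 and 0.15, and 3, 14 and 8 called for NICD3 against NICD1, NICD4 against NICD1 and NICD3 against NICD2. The length trend alone moved the medians to -0.091, 0.019, -0.022 and -0.30. Without a filter the median in NICD3 was -0.19. With only the compared groups fitted, NICD4 against NICD1 gave 2 and NICD3 against NICD2 7.

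Leaving out 1 library at a time gave medians of -0.10 to -0.048 in NICD2 and -0.18 to -0.12 in NICD3, the lowest without EV replicate 1 or 2. It gave 7 to 35 members for NICD2 against NICD1, 0 to 1 for NICD3 against NICD1, 4 to 39 for NICD4 against NICD1 and 2 to 7 for NICD3 against NICD2.

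Called genes changed sign as follows. GC trend removed, with or without the replicate block: HNRNPA1 0.052 and 0.00085 (NICD1, NICD3), HNRNPA2B1 0.074 and 0.12 (NICD1, NICD3), HNRNPA3 0.50 (NICD4), HNRNPC 0.39 and 0.30 (NICD1, NICD4), HNRNPK 0.16, 0.063 and 0.072 (NICD1, NICD3, NICD4), HNRNPU 0.42, 0.35 and 0.45 (NICD1, NICD3, NICD4), PRPF19 -0.039 (NICD1), SRSF1 0.0011 (NICD3), SRSF3 0.33 (NICD4), SRSF6 0.081 and 0.18 (NICD3, NICD4), PTBP1 -0.16, -0.21 and -0.30 (NICD1, NICD3, NICD4). GC and length trends removed: HNRNPA1 0.12 and 0.062 (NICD1, NICD3), HNRNPA2B1 0.24 and 0.31 (NICD1, NICD3), HNRNPA3 0.60 (NICD4), HNRNPC 0.53 and 0.42 (NICD1, NICD4), HNRNPK 0.23, 0.12 and 0.14 (NICD1, NICD3, NICD4), HNRNPR 0.061 (NICD1), HNRNPU 0.65, 0.62 and 0.63 (NICD1, NICD3, NICD4), PRPF19 -0.16 and -0.060 (NICD1, NICD3), SF3B3 0.030 and 0.050 (NICD1, NICD3), SF3B4 -0.14 and -0.12 (NICD1, NICD4), SRSF10 0.053, 0.10, 0.10 and 0.015 (NICD1, NICD2, NICD3, NICD4), SRSF11 0.076, 0.071 and 0.12 (NICD1, NICD3, NICD4), SRSF3 0.45 (NICD4), SRSF6 0.047, 0.019, 0.12 and 0.24 (NICD1, NICD2, NICD3, NICD4), ALYREF -0.14 (NICD4), PTBP1 -0.027, -0.082 and -0.18 (NICD1, NICD3, NICD4), QKI 0.049 (NICD4). Length trend removed: HNRNPC 0.052 (NICD1), HNRNPU 0.24, 0.27 and 0.12 (NICD1, NICD3, NICD4), PRPF8 0.073 and 0.027 (NICD1, NICD3), SF3B3 0.18, 0.18 and 0.13 (NICD1, NICD3, NICD4), SNRPE -0.075 and -0.037 (NICD1, NICD3). Library totals: HNRNPUL1 -0.014 (NICD2), PRPF19 -0.11 and -0.017 (NICD1, NICD3), PRPF38A -0.28 and -0.032 (NICD1, NICD3), SF3A1 -0.0073 (NICD2), SF3A3 -0.22 and -0.24 (NICD1, NICD4), SF3B2 -0.17 (NICD3), SF3B4 -0.091 and -0.092 (NICD1, NICD4), SNRPD1 -0.20 (NICD4), U2AF1 -0.071 and -0.15 (NICD3, NICD4), PTBP1 -0.11 (NICD3).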
